A study of Mus musculus with 35 samples.

Results

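The acyl-CoA thioesterases described here were Acot1, Acot2, Acot3, Acot4, Acot5, Acot6, Acot8, Acot11, Acot12 and Acot13, 10 of the 55421 genes in the count table. The group was taken because Acot5 had no counts in any mouse at room temperature and clear counts in every mouse after 6 hours of cold, so the values of Acot5 at room temperature and after 6 hours are a description, as is the whole comparison of 6 hours with room temperature. The libraries came from interscapular brown adipose tissue (iBAT) of male C57BL/6J mice aged 9 to 10 weeks that carried no transgene. Control mice stayed at the colony temperature of 24 °C (RT, 5 mice), and the others were kept at 6 °C for 6 hours or for 1, 2, 3, 4 or 5 days (5 mice each, 35 mice in all). Mice in the cold were caged singly without nesting material. Caging of the controls was not given in the sources used here, so cold and single caging cannot be told apart. Each library was made from 1 mouse by QuantSeq, which reads the end of polyadenylated transcripts, and held between 3846016 and 6047247 counts. Values are given as CPM (reads of a gene over the total of its library, scaled by TMM over all 35 libraries), on which 1 read was worth 0.151 to 0.285 CPM. A transcript gives reads from its end only, so counts do not scale with transcript length. Levels are compared below between mice and durations, not between genes.

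Fatty acids are activated by joining them to coenzyme A, and acyl-CoA synthetases make these acyl-CoAs for oxidation, for storage as triglyceride and for signalling. Acyl-CoA thioesterases do the reverse: they split an acyl-CoA into the free fatty acid and coenzyme A, and thereby set the balance between both pools in each compartment of the cell. Brown adipocytes burn fatty acids to make heat in the cold. The enzymes of the family work in different places. ACOT1 is cytosolic, ACOT2 mitochondrial, and ACOT3, ACOT4, ACOT5 and ACOT6 are close relatives assigned to peroxisomes. ACOT8 is a peroxisomal enzyme of another fold, ACOT11 is also known as brown fat inducible thioesterase, ACOT12 is a cytosolic enzyme that acts on acetyl-CoA, and ACOT13 is associated with mitochondria.

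Acot1 to Acot6 lie together on chromosome 12. In GRCm38 they are read in the same direction, on the plus strand, and span 123.5 kb in the order Acot2 (83987861 to 83993873), Acot1 (84009490 to 84018371), Acot4 (84038379 to 84048601), Acot3 (84052144 to 84060402), Acot5 (84069325 to 84076020) and Acot6 (84100654 to 84111349). The others stand alone: Acot8 on chromosome 2 (164792765 to 164804882, minus strand), Acot11 on chromosome 4 (106744555 to 106804998, minus strand), and Acot12 (91741512 to 91786148, plus strand) and Acot13 (24817948 to 24831540, minus strand) on chromosome 13. The close similarity of the chromosome 12 genes could let reads be split between them. Over the last 400 bases of their annotated protein-coding transcripts, exact windows of 76 bases (the read length) were found in another gene only for Acot5. There, 4 of 326 windows (1.2%) also occurred in a transcript of Acot3. Matches with mismatches, and sequence outside annotated transcripts, were not searched, so how reads were divided cannot be told from this. Exons of Acot4 and Acot3 overlap those of Gm49366 on the same strand, which had 0 counts in all libraries, and of the antisense gene 4732463B04Rik, which had at most 18 counts in a library. Exons of Acot8 overlap Snx21 on the opposite strand (at most 99 counts in a library), and exons of Acot12 overlap the antisense gene 4833422C13Rik (at most 10). The strand setting of the read counting was not given in the sources used here, so values of Acot4, Acot8 and Acot12 are uncertain to that extent.

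The 250 bases before the transcription start were available from RefSeq (GRCm38.p6) for 8 of the 10 genes. They are shown for Acot5, Acot4 and Acot2, chromosome 12 neighbours whose time courses differed, and for Acot8, whose levels were raised at every duration. Capitals mark matches, on either strand, to AGGTCA (the core site of nuclear receptors such as the PPARs), TGACG (the short form of the cyclic AMP element), TATAAA (the TATA box), CCAAT (the CCAAT box) and GGGCGG (the GC box).
Acot5, chr12:84069075-84069324, plus strand: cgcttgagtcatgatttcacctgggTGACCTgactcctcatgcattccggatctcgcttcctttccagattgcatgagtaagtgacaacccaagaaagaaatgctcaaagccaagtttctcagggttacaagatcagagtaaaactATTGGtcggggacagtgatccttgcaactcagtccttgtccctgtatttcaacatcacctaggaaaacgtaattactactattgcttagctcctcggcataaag
Acot4, chr12:84038129-84038378, plus strand: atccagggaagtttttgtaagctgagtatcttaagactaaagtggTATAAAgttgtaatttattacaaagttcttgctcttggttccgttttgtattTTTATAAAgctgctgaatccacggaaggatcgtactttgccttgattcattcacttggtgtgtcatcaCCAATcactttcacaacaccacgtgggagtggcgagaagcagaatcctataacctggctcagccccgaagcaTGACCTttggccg
Acot2, chr12:83987611-83987860, plus strand: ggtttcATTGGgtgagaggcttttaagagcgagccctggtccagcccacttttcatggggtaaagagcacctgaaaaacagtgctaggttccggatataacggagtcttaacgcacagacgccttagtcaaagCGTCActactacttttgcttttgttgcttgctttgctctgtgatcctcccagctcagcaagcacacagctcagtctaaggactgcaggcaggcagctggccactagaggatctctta
Acot8, chr2:164804882-164805131, minus strand: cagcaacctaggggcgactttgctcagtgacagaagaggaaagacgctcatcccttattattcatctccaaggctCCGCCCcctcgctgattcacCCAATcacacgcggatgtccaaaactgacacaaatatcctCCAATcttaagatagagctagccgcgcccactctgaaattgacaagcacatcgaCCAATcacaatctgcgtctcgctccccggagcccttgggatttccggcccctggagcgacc
AGGTCA was found before 3 of the 8 genes, namely Acot5 (from −225 to −220 relative to the start), Acot4 (from −13 to −8) and Acot12 (from −110 to −105), and 14.0% of the 32851 windows of the same length before all genes held it. AGGTCA repeated after 1 base was in none of the 8 (0.0335% of all windows). TGACG occurred before Acot2 only (17.8% of all windows), from −117 to −113. The whole cyclic AMP element TGACGTCA, which contains TGACG, was in none of the 8 (1.55% of all windows). TATAAA was found before Acot4 only (12.4%), and 2 of its 3 matches there overlap. CCAAT stood before 7 of the 8 genes (33.8%), with 3 matches before Acot8, and GGGCGG before 4 (32.7%). The counts are of genes with a match in any of their windows, whereas the percentages are shares of windows. The 8 genes had 11 windows, so genes with several windows had more chances of a match. Acot11, for example, had CCAAT and GGGCGG in different windows. Counts and percentages are thus in different units, and no excess or lack of a motif is read from them. A match of letters is not a site in use, and a missing one says only that these letters are not in the window.

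Brown adipocyte markers such as Ucp1, Cidea and Adipoq were present in every library, and the sum over 13 of them ranged from 14097 to 27334 CPM. It was 14097 to 17745 CPM in RT mice and 21134 to 27334 CPM after 6 hours. None of the 13 was at 0 in any group. In bulk tissue, fewer cells of a type and less RNA per cell cannot be told apart. The sum of 8 endothelial markers was 333 to 399 CPM at RT, 513 to 633 CPM after 6 hours, 582 to 684 CPM after 1 day and 296 to 450 CPM after 5 days. That of 10 macrophage markers was 88.4 to 218 CPM at RT, 161 to 371 CPM after 3 days, 112 to 324 CPM after 4 days and 129 to 262 CPM after 5 days. The sum of 8 stromal progenitor markers was 548 to 772 CPM at RT, 417 to 511 CPM after 1 day, when all mice were below the RT mice, 536 to 981 CPM after 3 days and 396 to 868 CPM after 5 days. That of 5 erythroid markers was 1803 to 2316 CPM at RT, 2489 to 4492 CPM after 1 day and 2709 to 4980 CPM after 5 days. Skeletal muscle markers (12 genes) ranged from 48.8 to 1454 CPM, with the highest sums in RT mice 1 and 3, 1 day mouse 5 and 4 days mouse 5. Of 8 hepatocyte markers, 3 were at 0 at RT, and the sum was 78.3 to 119 CPM at RT and 16.8 to 41.3 CPM after 1 day. Kidney tubule markers (6 genes, 4 of them at 0 at RT) reached at most 1.34 CPM. The part of these markers in the results below was not tested. Some values are also given without the 4 libraries richest in muscle markers. That changes which mice are compared, so it does not single out the part of muscle.

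Acot5 went from no counts to its highest level within 6 hours. Its counts were 0 in all 5 RT mice and 47, 110, 103, 162 and 177 in the mice after 6 hours, or 26.3 ± 9.83 CPM (SD, n = 5). With a floor of 3 counts per library, 0.565 CPM, this was at least 46.5-fold higher than at RT. Counts were 32, 24, 13, 38 and 76 after 1 day and 63, 43, 61, 3 and 16 after 2 days, at means of 8.20 ± 5.81 and 7.17 ± 4.35 CPM. Later the level was lower and more even. Counts were 10, 13, 28, 18 and 9 after 3 days (3.16 ± 1.12 CPM), 15, 19, 21, 27 and 19 after 4 days (3.71 ± 1.03 CPM), and 6, 15, 7, 7 and 17 after 5 days (2.18 ± 1.08 CPM). After 5 days the mean was thus 8.31% of the 6 hour mean, and still at least 3.86-fold above the RT floor. All cold mice had Acot5 counts, but 2 days mouse 4 had 3, a count at the floor. The order of the means was 6 hours, 1 day, 2 days, 4 days, 3 days, 5 days and RT. The mice of neighbouring durations in this order overlapped from 6 hours to 5 days, and the 5 days mice stood above the RT mice.

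The durations of 1 to 5 days had no part in the choice of Acot5 and were tested among themselves. The level after 5 days was lower than after 1 day, by a log2 difference of −1.89 (standard error, SE, 0.45, 95% interval −2.84 to −0.933, adjusted p = 0.00762, edgeR). Acot5 passed the filter on low counts here mainly through the 1 day mice (13 to 76 counts, against 6 to 17 after 5 days). Beside the RT mice, which had no counts, the 5 days mice alone did not pass this filter. Acot5 thus entered this test through its higher level after 1 day, so the result is a description. An F test for any difference among the 5 durations also passed (adjusted p = 0.013, edgeR). Without each mouse in turn, the log2 fold change from 1 to 5 days ranged from −2.13 to −1.40 and stayed past the threshold each time. The same limit on the entry of Acot5 holds for these fits.

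**Figure D1:**
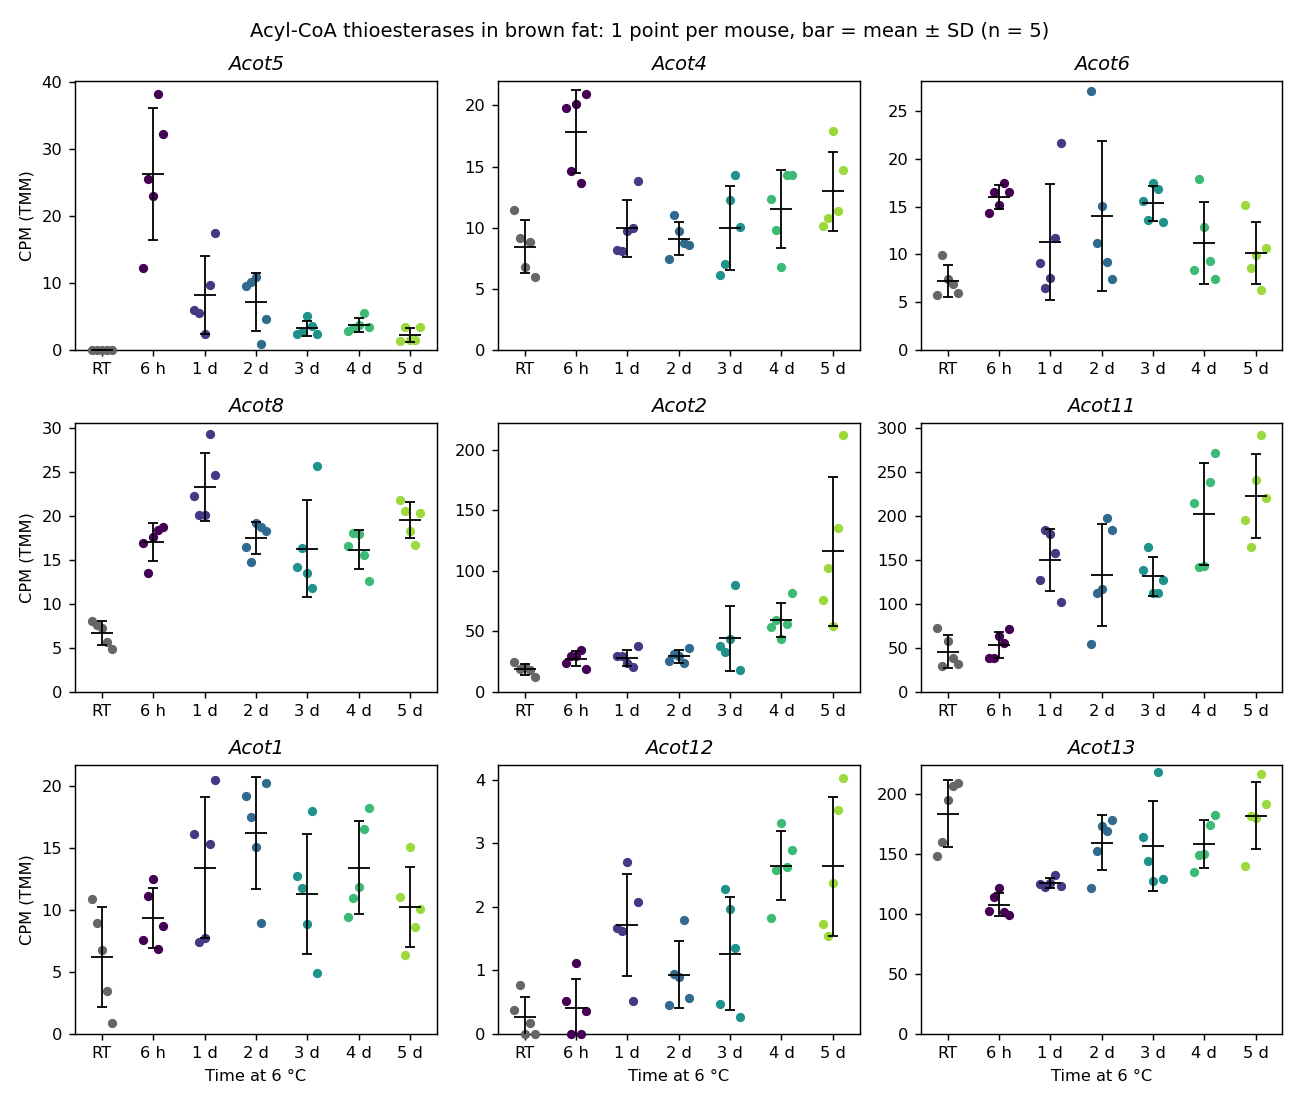
Normalised counts (CPM, TMM) of 9 acyl-CoA thioesterases in each of the 35 mice (points) by time at 6 °C, with the mean ± SD of 5 mice (bars). Acot5 rises from 0 at RT to 12.3 to 38.3 CPM after 6 hours and then falls, whereas Acot2 and Acot11 have their highest means after 5 days and Acot13 its lowest after 6 hours.

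At 6 hours, 4 of the 8 thioesterases that passed the filter on low counts had every cold mouse above every RT mouse and 1 had every cold mouse below. Of all 10593 genes tested, 15.8% were above and 12.7% below in this way. Since the group was chosen on this contrast, nothing is read from these counts. Apart from Acot5, the peroxisomal Acot4 was at 8.42 ± 2.16 CPM at RT (60, 48, 31, 54 and 33 counts) and 17.8 ± 3.40 CPM after 6 hours (76, 63, 90, 58 and 115 counts). Acot6 was at 7.17 ± 1.68 and 16.0 ± 1.24 CPM, and its 6 hour mice differed little among themselves (14.3 to 17.5 CPM). The third was Acot8, at 6.68 ± 1.34 and 17.1 ± 2.12 CPM. Acot13 was lower in every cold mouse, at 184 ± 27.8 CPM at RT and 108 ± 9.84 CPM after 6 hours. For Acot1, Acot2 and Acot11 the mice overlapped between both groups. Their log2 fold changes were 0.59 (SE 0.38), 0.52 (0.18) and 0.21 (0.23). Without the 4 libraries richest in muscle markers, 2 of which are RT mice, they were 1.07, 0.73 and 0.67. Then 6 rather than 5 members did not overlap between RT and 6 hours.

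From 1 day on, the 9 genes other than Acot5 could be tested against RT with edgeR, and 7 of them passed the filter on low counts. Acot3 and Acot12 did not. These 5 comparisons share the 5 RT mice, so that an unusual RT value enters each of them. After 1 day, 4 were higher (Acot1, Acot2, Acot8 and Acot11) and 1 was lower (Acot13), beside 18.9% of all genes tested higher and 17.8% lower. After 2 days, 5 were higher (Acot1, Acot2, Acot6, Acot8 and Acot11) and 0 were lower, against 16.4% and 14.7% of all genes. In each of the later groups 4 were higher and 0 lower, namely after 3 days (Acot2, Acot6, Acot8 and Acot11; 18.3% and 15.5% of all genes), after 4 days (Acot1, Acot2, Acot8 and Acot11; 19.4% and 18.6%) and after 5 days (Acot2, Acot4, Acot8 and Acot11; 20.2% and 18.6%). The median log2 fold change of the 7 was 0.62 after 1 day and 0.72 after 5 days, against −0.018 and −0.017 over all genes tested. Acot2, Acot8 and Acot11 were the members called at all 5 durations. With library size only in place of TMM, the median of all genes in comparisons with RT moved to between −0.25 and −0.15, and the calls over all genes after 1 day changed from 2014 higher and 1901 lower to 1140 higher and 3218 lower. Changes near those sizes therefore depend on the scaling.

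**Figure D2:**
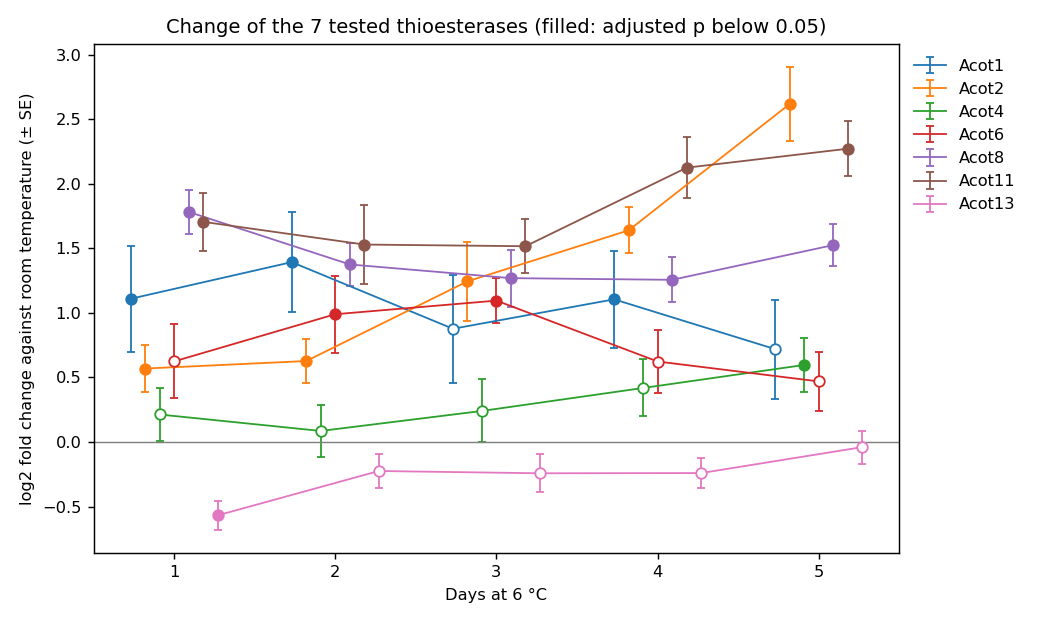
Log2 fold change against RT (± standard error, edgeR) of the 7 thioesterases tested, after 1 to 5 days at 6 °C (5 mice per group). Filled points have an edgeR adjusted p below 0.05. Acot2 climbs from 0.57 to 2.62, Acot8 stays between 1.26 and 1.78, and Acot13 moves from −0.57 to −0.04.

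Acot8, the peroxisomal thioesterase of broad substrate range, was raised early and stayed raised. It had 42, 40, 33, 35 and 27 counts at RT and 120, 87, 112, 115 and 107 after 1 day. In every cold group all 5 mice were above the highest RT mouse. The mean went from 6.68 ± 1.34 CPM at RT to 23.3 ± 3.86 CPM after 1 day, a log2 fold change of 1.78 (SE 0.17, adjusted p = 6.42e-07, edgeR), and was 19.5 ± 2.04 CPM after 5 days (log2 fold change 1.52, SE 0.16, adjusted p = 1.32e-06, edgeR). From 6 hours to 1 day it rose by a log2 fold change of 0.44 (SE 0.14, adjusted p = 0.0429, edgeR). That call was lost without 7 of the 10 mice, each left out in turn (6 hours mice 1 to 4 and 1 day mice 1, 4 and 5; range 0.35 to 0.50), and with library size only, with no filter and without the 4 muscle-rich libraries. Between 1 and 5 days the change of −0.26 did not pass (95% interval −0.561 to 0.047).

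Acot11, the brown fat inducible thioesterase, rose mainly after 6 hours. Its RT mice had 378, 151, 262, 238 and 172 counts and its 6 hour mice 147, 163, 281, 234 and 393, so the groups overlapped. The highest RT mice, 1 and 3 (72.1 and 57.2 CPM), are among the 4 libraries richest in muscle markers. Without those libraries the log2 fold change after 6 hours was 0.67, against 0.21 with all mice. After 1 day the counts were 686, 795, 998, 616 and 442, all above the RT mice on the CPM scale, and after 5 days 904, 746, 1114, 1490 and 1095. The mean rose from 45.6 ± 18.6 CPM at RT to 150 ± 34.9 CPM after 1 day (log2 fold change 1.71, SE 0.23, adjusted p = 2.21e-05, edgeR) and 222 ± 48.0 CPM after 5 days (2.27, SE 0.21, adjusted p = 2.77e-07, edgeR). The step from 6 hours to 1 day was 1.49 (SE 0.19, adjusted p = 3.22e-05, edgeR). A further rise from 1 to 5 days of 0.57 passed the threshold (SE 0.16, adjusted p = 0.0223, edgeR) but was lost without 1 day mouse 1 or 5 days mouse 4 and with all 7 groups in 1 fit. The F test among the 5 durations (adjusted p = 0.0397, edgeR) was lost in 14 of 25 fits without 1 mouse (1 day mice 1 and 4, 2 days mice 2 and 3, 3 days mice 1, 3, 4 and 5, 4 days mice 1, 4 and 5, 5 days mice 3, 4 and 5), with values up to 0.101, and without the muscle-rich libraries (0.0592). After 2 days, mouse 1 had 359 counts (54.3 CPM) and lay among the RT mice, while the other 4 had 112 to 198 CPM.

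Acot2, the mitochondrial member, was highest after 5 days, when its log2 fold change against RT was the largest of the 7. Counts were 128, 98, 95, 108 and 66 at RT, 159, 127, 130, 79 and 163 after 1 day, and 161, 158, 243, 458 and 70 after 3 days. They reached 294, 347, 252, 278 and 453 after 4 days and 352, 463, 253, 692 and 1056 after 5 days. The means were 18.7 ± 4.60 CPM at RT, 28.0 ± 6.66 after 1 day, 44.1 ± 26.6 after 3 days, 59.0 ± 14.1 after 4 days and 116 ± 61.7 CPM after 5 days. All 4 and 5 days mice were above all RT mice. The spread was wide, from 18.0 to 88.5 CPM after 3 days and from 54.5 to 212 CPM after 5 days. The log2 fold change against RT was 0.57 after 1 day (SE 0.18, adjusted p = 0.0215, edgeR) and 2.62 after 5 days (SE 0.28, adjusted p = 1.38e-06, edgeR). The call after 1 day was lost without RT mouse 4, RT mouse 5 or 1 day mouse 5, and those after 1 and 2 days were lost with library size only and with all 7 groups in 1 fit. Between 1 and 5 days Acot2 rose by 2.05 (SE 0.28, 95% interval 1.47 to 2.63, adjusted p = 8.23e-05, edgeR), and the F test among 1 to 5 days passed too (adjusted p = 3.11e-05, edgeR).

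Acot1, its cytosolic neighbour on the chromosome, followed neither course. The RT mice ranged from 5 to 57 counts (0.898 to 10.9 CPM), the widest spread relative to the mean at RT among the 7 tested genes (coefficient of variation 65.5%). The mean was 6.18 ± 4.05 CPM at RT and 13.4 ± 5.69, 16.2 ± 4.50, 11.3 ± 4.85, 13.4 ± 3.78 and 10.2 ± 3.22 CPM after 1 to 5 days. No duration had all mice above the RT mice. Log2 fold changes were 1.11 after 1 day (adjusted p = 0.0446, edgeR), 1.39 after 2 days (0.012) and 1.10 after 4 days (0.0279), and 0.88 after 3 days and 0.72 after 5 days, which did not pass. The last 2 passed with no filter (0.88 and 0.75) and without RT mouse 1 (1.19 and 1.03), that after 3 days also with the replicate block (0.96), and that after 5 days also without the 4 muscle-rich libraries (1.19, adjusted p = 0.0454, edgeR). The call after 1 day was lost in 6 of 10 fits without 1 mouse (RT mice 3, 4 and 5, 1 day mice 1, 4 and 5), with DESeq2 and with library size only, and that after 4 days without RT mouse 4, 4 days mouse 4 or 4 days mouse 5 and with DESeq2. Between 1 and 5 days the change was −0.39 (95% interval −0.972 to 0.193), not past the threshold.

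Acot4 and Acot6, both peroxisomal, had their highest means after 6 hours, but that of Acot6 (16.0 CPM) was close to its mean after 3 days (15.4 CPM). Acot4 fell from 6 hours to 1 day by 0.85 on the log2 scale (SE 0.18, adjusted p = 0.0039, edgeR), from 17.8 ± 3.40 to 9.94 ± 2.33 CPM, where its 95% interval against RT was −0.222 to 0.649. After 5 days it was at 13.0 ± 3.25 CPM, a log2 fold change of 0.60 against RT (SE 0.21, adjusted p = 0.0305, edgeR). The latter was lost in 5 of 10 fits without 1 mouse (RT mice 3, 4 and 5, 5 days mice 3 and 5) and with library size only. Acot6 was at 11.3 ± 6.11 CPM after 1 day and 14.0 ± 7.84 after 2 days, with a wide spread, and at 15.4 ± 1.83 CPM after 3 days, when all 5 mice stood above the RT mice. Its log2 fold change was 0.99 after 2 days (SE 0.30, adjusted p = 0.0191, edgeR) and 1.10 after 3 days (SE 0.18, adjusted p = 0.000179, edgeR). The former fell to 0.59 and was not past the threshold without 2 days mouse 1, which had 179 counts against 26 to 84 in the other 4, and was also lost with library size only and without the muscle-rich libraries. After 4 and 5 days Acot6 was at 0.62 (adjusted p = 0.0539, edgeR) and 0.47 against RT, not past the threshold. The former passed with DESeq2, RLE size factors, no filter and the replicate block, and without RT mouse 2 or 4 days mouse 1, 4 or 5. The latter passed without 5 days mouse 4. From 6 hours to 1 day Acot6 changed by −0.52 (not past the threshold), and by −0.89 (adjusted p = 0.00290, edgeR) without 1 day mouse 5, a muscle-rich library.

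From 6 hours to 1 day, 2 of the 7 tested members other than Acot5 were thus higher (Acot8 and Acot11) and 1 was lower (Acot4), where 9.19% of all genes were higher and 7.75% lower. From 1 to 5 days, 9 of the 10 members passed the filter, and 3 were higher (Acot2, Acot11 and Acot13) and 1 was lower (Acot5), where 10.7% of all genes were higher and 8.68% lower. Acot5 passed the filter there through its higher 1 day counts, so its place among the lower genes is a description. Among 1 to 5 days, 3 of 9 differed by the F test (Acot2, Acot5 and Acot11), where 17.4% of all genes did.

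**Figure D3:**
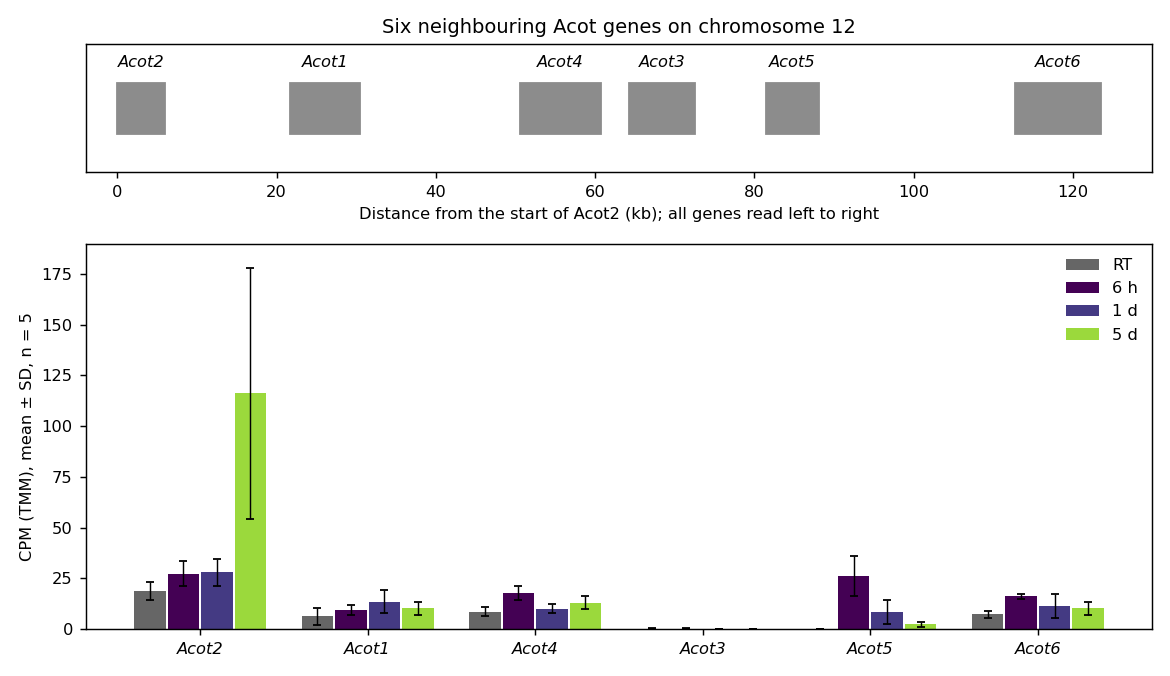
Map of the 6 Acot genes on chromosome 12 (boxes, in kb from the start of Acot2) above their mean normalised counts (CPM ± SD, 5 mice) at RT and after 6 hours, 1 day and 5 days of cold. Neighbours differ in course: Acot5, Acot4 and Acot6 are highest after 6 hours, Acot2 after 5 days at 116 CPM, and Acot3 is near 0 throughout.

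Acot13, which is associated with mitochondria, went the other way. Counts at RT were 778, 837, 892, 1266 and 1162, and 674, 529, 699, 517 and 536 after 1 day, when every mouse was below every RT mouse on the CPM scale. The mean fell from 184 ± 27.8 to 126 ± 3.8 CPM (log2 fold change −0.57, SE 0.11, adjusted p = 7.58e-04, edgeR). After 2 to 5 days the differences from RT were between −0.24 and −0.04 and did not pass. With library size only, Acot13 was also lower after 2 and 4 days. From 1 to 5 days it rose by 0.53 (SE 0.11, adjusted p = 0.00324, edgeR), with every 5 days mouse above every 1 day mouse.

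Acot12, the acetyl-CoA thioesterase, was near the limit of detection. It had 0 to 4 counts per mouse at RT, 0 to 5 after 6 hours, 2 to 15 after 1 day, 10 to 19 after 4 days and 7 to 20 after 5 days. The 4 and 5 days mice (1.82 to 3.31 and 1.54 to 4.02 CPM) stood above the RT mice, the highest of which was at 0.763 CPM, but the gene did not pass the filter against RT and was not tested there. From 1 to 5 days its log2 fold change was 0.59, not past the threshold (95% interval −0.243 to 1.42). Acot3 had at most 3 counts in a library and was at 0 in all mice after 1, 2, 4 and 5 days. A change of Acot3 was not detectable at this depth.

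Mice of the same duration differed in ways that some members shared. After the mean of each duration had been removed, Acot6 and Acot11 ran in opposite directions over the 35 mice, with Pearson's r = −0.707 and Spearman's rho = −0.651. When 2 days mouse 1 and 1 day mouse 5, the 2 mice most distant from the Acot6 median, were left out, r was −0.596 over 33 mice. Of all pairs of members compared in this way, Acot6 and Acot11 had the r of largest size, and the next was −0.491 for Acot8 and Acot13. In its group, 2 days mouse 1 had the lowest sum of brown adipocyte markers (16580 CPM). Its sums of macrophage (204 CPM) and endothelial markers (647 CPM) were the highest there. The part of these differences was not tested. 1 day mouse 5 had the highest Acot6, Acot5, Acot4, Acot2 and Acot1 levels and the lowest Acot11 level of its group, and was the library with the most muscle marker counts of all 35. Acot5 and Acot6 had r = 0.487 and rho = 0.534 within durations. The RT mice all had no Acot5 counts, so their Acot5 deviation is 0 and they carry nothing on how the 2 genes vary together. Without the 2 mice most distant from the Acot5 median, 2 days mouse 4 and 1 day mouse 3, r was 0.454, and without those most distant from the Acot6 median, 2 days mouse 1 and 1 day mouse 5, it was 0.345. These values come from the same libraries and share their depth, so they are a description.

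**Figure D4:**
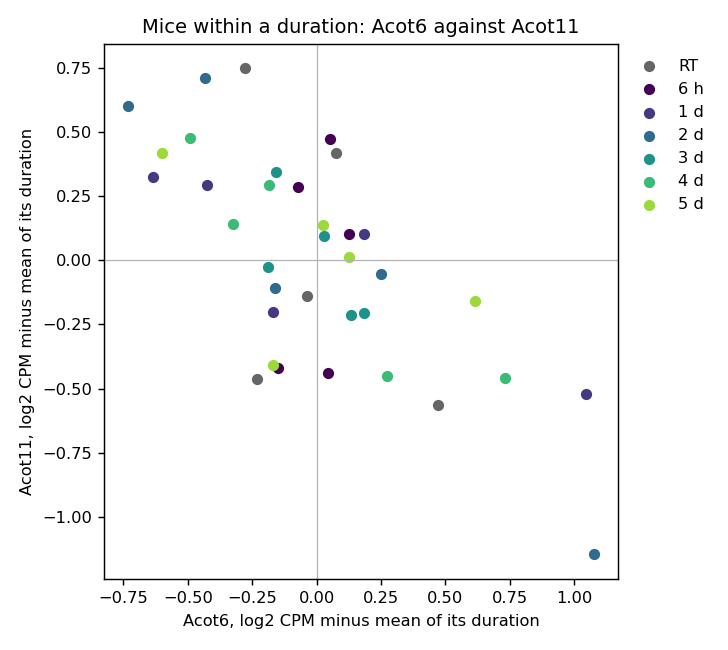
Acot11 against Acot6 in 35 mice (points, coloured by time at 6 °C), each as log2 CPM minus the mean of its duration. Mice with more Acot6 tended to have less Acot11 than others of their duration (r = −0.707, the largest in size of all pairs of members compared), with 2 days mouse 1 at the lower right.

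Among 12207 genes that had 10 or more counts in 5 or more libraries, those whose log2 CPM followed Acot5 most closely over the 35 mice were Mapkapk2 (r = 0.916), Cldn1 (0.896), Spry4 (0.892), Mylk (0.89), Prkar1a (0.886), Ddx39 (0.885), Naa20 (0.882), Dio2 (0.88), Sacm1l (0.88) and Ppargc1a (0.879). Mapkapk2 encodes a stress-activated kinase, Spry4 an inhibitor of receptor tyrosine kinase signalling, Prkar1a a regulatory subunit of protein kinase A, Dio2 the deiodinase that makes active thyroid hormone, and Ppargc1a a coactivator of PPARs. The RT and 6 hour mice by which Acot5 was chosen are among the 35, so a gene that is much higher after 6 hours than at RT ranks high through the choice itself, and the order is a description only. With the means of the durations removed, r with Acot5 was between 0.123 (Dio2) and 0.597 (Mylk), where the RT mice, all at a deviation of 0 for Acot5, carry no information. Which genes led depended on the measure, since 4 of the 10 were shared with Spearman's rho, 6 with library size only, 3 with a prior count of 0.5 and 0 with the durations removed.

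**Figure D5:**
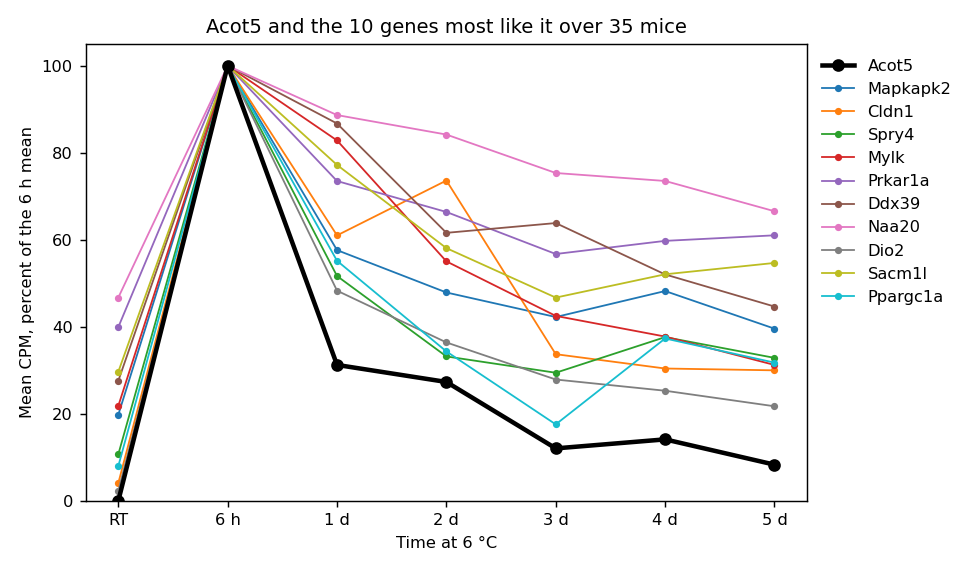
Mean CPM (5 mice) of Acot5 (black) and of the 10 genes most like it, each as a percentage of its own mean after 6 hours, against time at 6 °C. The peak after 6 hours and the 0 of Acot5 at RT follow from how the genes were chosen. After 5 days the 10 genes are at 21.7% (Dio2) to 66.6% (Naa20) and Acot5 is at 8.31%, values that rest on the 6 hour mean used in the choice.

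The other members had other companions. Acot11 followed Ldha (r = 0.959), Pgd (0.955) and Agpat2 (0.951), which encode lactate dehydrogenase, an enzyme of the pentose phosphate pathway and an enzyme of triglyceride synthesis. With the durations removed r was 0.917, 0.815 and 0.832. For Acot8 the leading genes were Slc16a1 (0.915), Ubqln1 (0.894) and Slc25a34 (0.893), and for Acot2 Ugp2 (0.864), Fhl1 (0.83) and Cebpg (0.814). Acot13 was closest to Cbr1, Rnf181 and Acp6 (0.821 to 0.822), Acot4 to Pabpc4, Aggf1 and Tomm70a (0.729 to 0.817), Acot12 to 1700037H04Rik, Aspg and Eif4ebp2 (0.786 to 0.794), Acot6 to St6galnac4, Cnpy4 and Adam17 (0.744 to 0.758), and Acot1 to Comtd1, Bscl2 and St3gal5 (0.708 to 0.743). For these members r was lower with the durations removed, at 0.384 to 0.529 for the genes of Acot8, 0.451 to 0.709 for Acot2, 0.394 to 0.592 for Acot13, 0.401 to 0.624 for Acot4, 0.422 to 0.573 for Acot12, 0.669 to 0.688 for Acot6 and 0.572 to 0.647 for Acot1.

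Of 12 further genes of enzymes that split acyl thioesters, 5 were tested. After 1 day, beside 18.9% of all genes higher and 17.8% lower, 1 was higher, Them4 (11.8 ± 1.98 to 26.2 ± 2.98 CPM, log2 fold change 1.13, adjusted p = 1.09e-05, edgeR), and 1 was lower, Ppt1 (−0.40, adjusted p = 0.0484, edgeR). After 5 days 2 were higher, Them4 (0.97) and the mitochondrial Acot9 (0.50), and 0 were lower (20.2% and 18.6% of all genes). Their median log2 fold change was −0.013 after 1 day.

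Acyl-CoA synthetases, which act in the opposite direction to thioesterases, included the largest log2 fold changes of these lists. Of 13 tested, 6 were higher and 2 lower after 1 day (18.9% and 17.8% of all genes), and 8 were higher and 1 lower after 5 days (20.2% and 18.6%), with median log2 fold changes of 0.37 and 0.39. Acsl5, which activates long-chain fatty acids, rose from 49.7 ± 22.3 CPM to 412 ± 115 after 1 day (log2 fold change 3.04, adjusted p = 2.21e-07, edgeR) and 640 ± 145 after 5 days (3.67, adjusted p = 5.06e-09, edgeR). The medium-chain synthetase Acsm3 fell from 40.7 ± 5.49 CPM to 3.60 ± 2.47 after 1 day (−3.47, adjusted p = 9.27e-08, edgeR) and was at 11.9 ± 4.43 CPM after 5 days (−1.80). Slc27a2 after 1 day (0.90) and Acsf2 after 5 days (1.79) were also higher.

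Of 13 tested genes that make, break down or bind coenzyme A and its esters, 4 were higher and 0 lower after 1 day (18.9% and 17.8% of all genes), and 5 were higher and 1 lower after 5 days (20.2% and 18.6%). Nudt19, a peroxisomal hydrolase of coenzyme A, rose from 22.8 ± 2.62 to 49.6 ± 6.33 CPM after 1 day (log2 fold change 1.11, adjusted p = 2.5e-06, edgeR) and was at 54.7 ± 10.5 CPM after 5 days (1.25). Pank1, which starts coenzyme A synthesis, was higher after 1 day (0.81), Ppcs after 1 day (0.78) and 5 days (0.78), and Dbi, the acyl-CoA binding protein, after 5 days (0.72).

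Of 21 tested genes of peroxisomal fatty acid oxidation, 4 were higher and 6 lower after 1 day, beside 18.9% and 17.8% of all genes, and 13 were higher and 4 lower after 5 days, beside 20.2% and 18.6% (medians −0.24 and 0.43). The 4 higher after 1 day and the 4 lower after 5 days are shares near those of all genes. Slc25a17, a peroxisomal carrier of coenzyme A, rose from 57.0 ± 16.1 to 212 ± 40.9 CPM after 1 day (log2 fold change 1.88, adjusted p = 5.05e-07, edgeR), and Ehhadh, a peroxisomal oxidation enzyme, from 6.82 ± 3.23 to 22.1 ± 7.33 CPM (1.68, adjusted p = 2.17e-04, edgeR). Both stayed higher after 5 days (1.85 and 1.69). Abcd2, a transporter of very long acyl-CoAs, fell from 57.7 ± 13.3 to 10.3 ± 3.53 CPM after 1 day (−2.49, adjusted p = 2.89e-07, edgeR) and was at 19.1 ± 7.10 CPM after 5 days (−1.61). Of 17 genes of mitochondrial oxidation, 3 were higher and 6 lower after 1 day and 8 were higher and 2 lower after 5 days, against the same shares of all genes, to which the 3 higher after 1 day are close. Cpt1a was higher after 1 day (1.46), Acaa2 and Eci1 were lower (−1.03 and −0.83), and after 5 days Cpt2 (1.10) and Slc25a20 (0.72) were higher and Acaa2 was lower (−0.67).

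Several thioesterases are known targets of the fatty acid receptors PPAR. Of 14 other PPAR-responsive genes tested, 8 were higher and 1 lower after 1 day (18.9% and 17.8% of all genes), and the same counts were found after 5 days (20.2% and 18.6%), with medians of 0.33 and 0.61. Plin2, a lipid droplet protein, rose from 250 ± 63.9 CPM to 888 ± 65.0 after 1 day (log2 fold change 1.81, adjusted p = 1.34e-07, edgeR) and 1448 ± 185 after 5 days (2.51, adjusted p = 1.9e-09, edgeR). Fabp3 was higher after 1 day (1.75) and Pdk4 after 5 days (1.31). Ehhadh, named above with the peroxisomal genes, is in this list too (1.68 and 1.69), so the lists are not separate sets of genes. Of 14 receptors and partners tested, 5 were higher and 3 lower after 1 day and 4 each after 5 days, against the same shares of all genes. Ppargc1a rose to 415 ± 184 CPM after 1 day from 60.1 ± 16.1 at RT (2.77, adjusted p = 3.89e-07, edgeR), Ppard was higher after 1 day (0.63), Rxrb was higher after 5 days (0.59), and Nrip1, a corepressor, was lower at both times (−0.74 and −0.84).

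With library size only, the balance of some of these lists moved. The peroxisomal genes were then 4 higher and 14 lower after 1 day and 8 higher and 7 lower after 5 days, and those of mitochondrial oxidation 1 and 10, then 6 and 4. The coenzyme A list had 3 higher and 2 lower after 1 day and 4 and 3 after 5 days, with medians of −0.12 and −0.032, below 0 where TMM put them above. The synthetases were 4 higher and 3 lower, then 5 and 2, and the further thioesterases 1 and 1 at both times. The PPAR-responsive genes had 4 higher and 3 lower after 1 day and 8 and 1 after 5 days, and the receptors and partners 2 and 4 at both times.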

How the data were processed

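Libraries from iBAT of 35 mice were prepared with the QuantSeq FWD kit and sequenced on an Illumina instrument. Per the labels, the submitters' processing notes name STAR 2.6.1d, HTSeq 0.11.2 and build GRCm38, and the authors deposited raw counts per gene as a single table without normalization. The strand and multimapping settings of the counting were not given in the sources used here. Libraries held 3846016 to 6047247 counts. Mitochondrial genes took 40.2% of all counts and Gm42418 took 11.6%. All 35 columns were matched to a mouse by duration and number, and 0 pairs of libraries were identical. Symbols were found for 55154 of 55421 identifiers.

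Each comparison was fitted on its own groups with edgeR 4.0.16 (R 4.3.3): filterByExpr, TMM factors, glmQLFit and glmQLFTest, with Benjamini-Hochberg adjustment over all genes tested and a threshold of 0.05. The standard error is the absolute log2 fold change divided by the square root of the F statistic. Acot5 was given no test in a comparison with RT or 6 hours mice, and no gene was given one between those 2 groups. Likeness is Pearson's r of log2 CPM with a prior count of 2. The text names all members, the 3 called genes with the largest change of each list after 1 and 5 days, and the 10 genes most like Acot5 (3 for other members). The members and lists were chosen with earlier results of these data known. Gene positions are from GENCODE M21 and promoters from RefSeq. The fits and the likeness step were tested on simulated data, in which the likelihood ratio test of DESeq2, used for the alternative among 1 to 5 days, made more false calls than edgeR in a single draw. The limit set for that check was loosened after this was seen. Alternatives were DESeq2 1.42.0, other size factors and filters, all groups in 1 fit, leaving out each mouse, and a replicate block. Leaving out the 4 muscle-rich libraries, and library size only for the gene lists, were added after seeing the data.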

Additional observations from a re-analysis of the deposited data

How the results depend on the processing

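Counts of members called stayed within 1.5 times the reported count under every alternative but these. With library size only, 3 rather than 5 members were called after 1 day against RT. Among 1 to 5 days, DESeq2 called 6 and all 7 groups in 1 fit called 5, rather than 3. DESeq2 made more false calls than edgeR in a single draw of simulated data. That draw gave every gene the same spread beyond counting noise, so it does not tell which of the calls here are false. Leaving out each mouse gave 3 to 6 called members after 1 day against RT, 4 to 5 after 2 and 3 days, 4 to 6 after 4 days, 3 to 5 after 5 days, 2 to 3 from 6 hours to 1 day, 3 to 4 from 1 to 5 days and 2 to 4 among 1 to 5 days, and 5 members did not overlap between RT and 6 hours each time. Without mitochondrial genes and Gm42418, 10 of the 70 mean levels stayed within 1 SD, since each CPM is then a share of fewer counts. Of the 10 genes most like Acot5, 4 were shared with Spearman's rho, 3 with a prior count of 0.5, 0 with the durations removed and 6 with library size only.

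Over all named values, fits without 1 mouse lost 41 calls, gained 19 and turned 8 signs, and kept 744 values. Acot13 after 4 days was past the threshold without the muscle-rich libraries (−0.35). Signs turned for log2 fold changes that did not pass the threshold. Acot4 after 2 days against RT was −0.13 with library size only and −0.024 without RT mouse 5. Acot2 from 6 hours to 1 day ranged from −0.081 to 0.14, Acot13 after 5 days from −0.11 to 0.052 and Acot6 from 1 to 5 days from −0.346 to 0.213, when each mouse was left out. Without the 4 muscle-rich libraries, Acot2 from 6 hours to 1 day was −0.081 and Acot6 from 1 to 5 days was 0.21, which it also was without 1 day mouse 5. The cause was not tested.

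Replicate numbers were not treated as pairs. With the duration means removed, mice with the same number had correlations of −0.234 to 0.145. Between RT and 6 hours, 3 of the numbers correlated best with their own number, and 0 or 1 did in the other comparisons. With the replicate block, Acot1 after 1 day (log2 fold change 1.15, adjusted p = 0.056, edgeR) and Acot4 after 5 days (0.59, adjusted p = 0.0565, edgeR) were not past the threshold, whereas Acot1 after 3 days (0.96), Acot6 after 4 days (0.58) and Acot13 among 1 to 5 days (adjusted p = 0.0334, edgeR) were. Depth limits Acot3 and Acot12 most.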
